A study of Mus musculus with 22 samples.

Results

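Of the 28815 probe sets measured on an Affymetrix gene array of mouse hypothalamus, 7035 carry no single gene symbol in the platform annotation: 5430 list no symbol and 1605 list several. Among these, 48 differed by at least 0.4 on the log2 scale, a 1.32-fold change, between arrays from mice given lipopolysaccharide (LPS, a cell wall component of Gram-negative bacteria) and arrays from mice given saline, when the difference of group means was averaged over both genotypes. All 48 were higher after LPS and 0 were lower; 26 list no symbol and 22 list several. These probe sets were thus selected on their LPS minus saline values, which for them are a description and not a test.

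The mice were C57bl6 males, 9 to 12 weeks old. One genotype was deficient in interleukin-6, a cytokine of the fever response (labelled IL-6 KO, here KO), and the other was wild type (WT), from litters of the same parents. Each animal received 1 injection of LPS from E. coli at 120 µg/kg, or of saline, into the abdomen, was killed 3 h later and was perfused with saline before the hypothalamus was taken, and 200 ng of RNA was labelled with biotin. The design asked which genes differ between the genotypes after LPS. There were 4 arrays of WT after saline, 7 of WT after LPS, 4 of KO after saline and 7 of KO after LPS. The labels describe neither the disrupted allele nor any restriction of the deficiency to a cell type. Since no label says that the arrays hold different mice, a p-value here reflects variation among arrays, which may be technical. Every value is a log2 difference from the median of that probe set over the 22 arrays, so a value of 0 is the median array. The deposited values hold no level of a gene, and the labelled tissue could not be checked by the level of hypothalamic markers.

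LPS binds its receptor on macrophages, microglia and vascular cells, and the interferons and cytokines that follow switch on many gene families that exist as clusters of near-identical copies. Among these families in mice are the guanylate-binding proteins (Gbp genes), the immunity-related GTPases (Tgtp1, Tgtp2, Irgm2, Igtp, Ifi47) and the very large interferon-inducible GTPases (Gvin1), which act against bacteria and parasites inside cells. A short array probe can match several copies at once, and such a probe set can then list several symbols. Symbols listed together need not be copies: Ifi47 is listed with an olfactory receptor gene, and Cdkn1a with a long non-coding RNA. The measured signal of a probe set with several symbols was not assigned to 1 of the listed genes.

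The bases before the transcription start of the listed genes are shown because several listed genes hold the same motif letters there, some of them in copies of 1 family. Of the 48 symbols that the 22 probe sets list, 27 had a promoter in the RefSeq table (build GRCm38.p6). For each gene only the first listed start was used. The 250 bases before it were searched on both strands, with overlapping matches allowed. The letters GAAA, then any 2 bases, then GAAA, like an interferon-stimulated response element (ISRE), were found in 9 of the 27 (33.3%). Among the 27025 genes of the table, each with 1 start, they were found in 821 (3.04%). The letters TTCNNNGAA, like an interferon-gamma activated site (GAS), were found in 5 (18.5%) against 7.18%, TTGCNNAA, like a C/EBP site, in 9 (33.3%) against 9.55%, and GGG, any 5 bases and CC, like a kB site, in 13 (48.1%) against 45.4%. Close copies share sequence, so the 27 promoters are not independent, and a match is a run of letters and not a shown binding site. For the 8 genes with an ISRE-like match in the last 150 bases before the start, those bases are given 5′ to 3′ on the gene's own strand, with ISRE-like and GAS-like matches in capitals:
Gbp2, chr3:142620513-142620662, + strand: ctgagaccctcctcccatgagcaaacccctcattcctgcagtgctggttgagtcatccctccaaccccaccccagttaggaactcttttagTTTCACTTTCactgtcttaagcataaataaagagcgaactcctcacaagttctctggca
Gbp2b, chr3:142594697-142594846, + strand: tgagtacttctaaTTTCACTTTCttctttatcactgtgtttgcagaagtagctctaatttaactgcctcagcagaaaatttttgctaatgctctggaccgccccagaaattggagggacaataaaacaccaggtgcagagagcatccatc
Igtp, chr11:58199406-58199555, + strand: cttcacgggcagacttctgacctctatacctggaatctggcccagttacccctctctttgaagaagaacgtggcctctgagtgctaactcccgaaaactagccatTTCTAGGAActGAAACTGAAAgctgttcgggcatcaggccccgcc
Irgm2, chr11:58214827-58214976, + strand: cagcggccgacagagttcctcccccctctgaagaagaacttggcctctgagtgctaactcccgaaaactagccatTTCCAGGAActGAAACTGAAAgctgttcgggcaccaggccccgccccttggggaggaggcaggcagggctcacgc
Tgtp1, chr11:48992247-48992396, - strand: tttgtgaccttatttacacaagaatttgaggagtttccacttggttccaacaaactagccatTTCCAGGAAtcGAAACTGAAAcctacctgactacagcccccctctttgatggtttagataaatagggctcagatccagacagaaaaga
Tgtp2, chr11:49064213-49064362, - strand: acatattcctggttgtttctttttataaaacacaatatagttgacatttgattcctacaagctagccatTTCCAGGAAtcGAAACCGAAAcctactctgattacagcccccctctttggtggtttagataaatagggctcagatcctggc
Oas1a, chr5:120907526-120907675, - strand: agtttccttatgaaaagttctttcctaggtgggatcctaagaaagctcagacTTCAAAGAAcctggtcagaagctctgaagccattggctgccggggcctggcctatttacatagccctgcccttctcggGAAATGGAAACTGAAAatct
Oas1g, chr5:120887614-120887763, - strand: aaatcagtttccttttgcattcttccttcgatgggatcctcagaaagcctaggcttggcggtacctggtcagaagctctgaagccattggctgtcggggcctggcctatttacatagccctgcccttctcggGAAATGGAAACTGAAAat
In Igtp, Irgm2, Tgtp1 and Tgtp2 a GAS-like match lies 2 bases before an ISRE-like one. The longest stretch shared within these 150 bases was 38 bases between Igtp and Irgm2, 27 between Tgtp1 and Tgtp2, 56 between Oas1a and Oas1g, and 20 between Irgm2 and Tgtp1, which none of the 22 lists together. Of these stretches, the one of Oas1a and Oas1g holds the ISRE-like matches and the one of Irgm2 and Tgtp1 holds the GAS-like match. Those of Igtp with Irgm2 and of Tgtp1 with Tgtp2 hold neither, but only the longest exact stretch of each pair was taken. Outside it, Igtp and Irgm2 hold the same ISRE-like letters, GAAACTGAAA, and Tgtp1 and Tgtp2 the same GAS-like letters, TTCCAGGAA. Gbp2 and Gbp2b shared 10 bases, which are the ISRE-like match TTTCACTTTC itself, 59 bases before the start in Gbp2 and 137 in Gbp2b. The windows of 9930111J21Rik1 and 9930111J21Rik2, which hold neither of those motifs, were identical over 233 bases when shifted by 17.

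Several measures of the whole series touch these results. The probe set of Il6, the disrupted gene, differed by 0.17 (SE 0.07) between KO and WT after LPS, with KO the higher and an adjusted p of 0.43 (limma). LPS minus saline for that probe set was 0.36 (SE 0.08, adjusted p = 0.027) in KO and 0.21 (SE 0.08, adjusted p = 0.55) in WT (limma). Where its probes lie in the gene is not given in the sources used here, so it does not check the genotype labels, and KO means an array labelled so throughout. Ttr, a transcript of the choroid plexus, or the pituitary hormone transcripts Gh and Prl lay between 2.74 and 4.62 in 4 arrays, 1 of each group, and at 2.43 or below in the others. Without these 4 arrays the rule gave 50 probe sets, of which 47 were among the 48. The arrays that were kept were not free of such signal: Ttr lay at 2.43 in WT LPS replicate 2 and Gh at 2.20 in KO LPS replicate 5. The titles number the arrays 1 to 22, and 18% of all probe sets differed between numbers 1 to 11 and 12 to 22 in a fit that also held the 4 groups. The first range holds 8 WT and 3 KO arrays and the second 3 WT and 8 KO arrays, so the main genotype results are given with the number as a term too. Throughout, the array number as a term means these 2 ranges, and the order of arrays within a range was not fitted.

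The 48 probe sets formed a graded group, from 2.78 (SE 0.14), a 6.85-fold increase, down to 0.40 (SE 0.17). Their median difference was 0.89, beside -0.01 over all probe sets. In limma 47 of the 48 passed an adjusted p of 0.05 in the averaged contrast, where 1.68% of all probe sets were called higher. In WT alone 47 passed, against 1.26% of all, and in KO alone 44 passed, against 0.951%. Every LPS array lay above every saline array for 47 in WT (1.47% of all probe sets) and for 44 in KO (1.13%), and for 44 in both genotypes (0.871%). The mean over the 48 lay between -0.91 and -0.80 in the WT saline arrays, between -0.92 and -0.83 in the KO saline arrays, between 0.04 and 0.35 in WT after LPS and between -0.12 and 0.30 in KO after LPS. The LPS arrays varied more than the saline arrays: WT LPS replicate 5 was the lowest of its group in 25 of the 48 and replicate 4 the highest in 22, and KO LPS replicate 4 was the lowest in 22 and replicate 7 the highest in 23. The same contrast chose the probe sets, so nothing is read from the counts of passing or separated probe sets. In bulk tissue, more cells of a type and more RNA per cell cannot be told apart in any of these differences.

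The share of probe sets past 0.4 in size was 1.37% among those with several symbols, 0.479% among those with none, and 0.96% among the 21780 with 1 symbol, of which 189 were higher and 20 lower. The probe sets just inside the threshold were 10356278, at 0.41 (SE 0.06), and 10417068, at 0.40. Just outside lay 10450699, which lists no symbol, at 0.39 (SE 0.07) and 10356269, which lists Sp140 and A530032D15Rik, at 0.38 (SE 0.06). On the lower side the nearest were 10598041 at -0.33 (SE 0.17) and 10542894 at -0.30 (SE 0.11), both without a symbol.

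Interferon-inducible GTPases made up 11 of the 22 probe sets with several symbols, including the 4 largest differences of all. Probe set 10496592 lists Gbp2 and Gbp2b, guanylate-binding proteins that coat the vacuoles of intracellular microbes. Its 4 WT saline values were -2.63, -2.39, -2.41 and -2.76, and its 4 KO saline values were -2.44, -2.49, -2.18 and -2.68. After LPS the WT arrays ran from 0.02 through a median of 0.33 to 0.81, and the KO arrays from -0.56 through 0.06 to 0.75. The lowest LPS array of either genotype stood well clear of the highest saline array, and the LPS ranges of the genotypes overlapped. The difference was 3.0 in WT and 2.55 in KO (SE 0.19 each). The second guanylate-binding probe set, 10531994, lists Gbp11, Gbp10, Gbp9, Gbp6, Gbp8 and Gbp4 and differed by 2.40 (SE 0.09), a 5.28-fold increase.

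The 6 probe sets of the immunity-related GTPases ranged from 1.13 to 2.56. Tgtp1 and Tgtp2, which load onto parasite vacuoles, are listed together by 2 probe sets. The first, 10385518, lay at -2.31, -2.43, -2.12 and -2.53 in WT after saline and at -2.49, -2.50, -2.37 and -2.60 in KO after saline. After LPS its WT values ran from -0.20 through 0.11 to 0.36 and its KO values from -0.11 through 0.20 to 0.40. The treatments did not overlap in either genotype, and the SD within a group was between 0.10 and 0.18. The difference was 2.47 in WT and 2.65 in KO (SE 0.10 each). The second, 10385533, differed by 2.38 (SE 0.08), and the deviations of both from their group means correlated at r = 0.86 over the 22 arrays.

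Ifi47, an immunity-related GTPase, is listed with the olfactory receptor gene Olfr56 by probe set 10375515, which differed by 1.46 (SE 0.08). Irgm2 and Igtp, which regulate the other GTPases of the family, are listed by 10376326, which differed by 1.40 (SE 0.06). A pair of probe sets, 10385513 and 10385526, both list 9930111J21Rik1 and 9930111J21Rik2 and differed by 1.14 and 1.13 (SE 0.05 each). These 2 never lay more than 0.07 apart on an array, and their deviations from group means correlated at r = 0.97, so they are not separate measurements of the family.

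The 3 probe sets of the very large GTPases were smaller and less even. Gm4070, Gm8989, Gm8979, Gm1966 and Gvin1 are listed by 10566578 at 0.57 (SE 0.06) and by 10566571 at 0.43 (SE 0.06). Gm4070 and Gvin1 alone are listed by 10566574 at 0.55 (SE 0.09). In that probe set KO saline replicate 4 lay at 0.13, inside the KO LPS range of -0.05 to 0.36, while the other KO saline arrays lay at -0.83, -0.26 and -0.44. It was 1 of the 2 probe sets with several symbols whose treatments overlapped in KO.

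A run of 13 probe sets, from 10383152 to 10383212, occupied consecutive rows of the table, and every row of that stretch was among the 48. They list no symbol and stay unnamed here. Probe set 10383214, which lists Rnf213 alone, has an ID shortly after the run. It differed by 1.30 (SE 0.08), and by -0.22 between KO and WT after LPS. Another probe set of Rnf213, 10383233, differed by 1.12 (SE 0.10). Whether the run measures Rnf213 was not tested. The differences of the 13 ran from 0.75 to 1.47 with a median of 1.28. The highest, 10383202, lay at -1.19, -1.31, -1.30 and -1.48 in WT after saline and at -1.23, -1.26, -1.32 and -1.61 in KO after saline. After LPS its WT values ran from -0.11 through 0.23 to 0.64 and its KO values from -0.44 through 0.13 to 0.32. In each of the 13, every LPS array lay above every saline array in both genotypes, in the contrast by which they were chosen.

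The probe sets of the run also varied together within groups, though not only with each other. The mean over the 13 lay between -1.11 and -0.94 in the WT saline arrays and between -1.11 and -1.0 in the KO saline arrays. It lay between 0.04 and 0.55 in WT after LPS and between -0.29 and 0.34 in KO after LPS, so the LPS arrays spread more widely than the saline arrays. Pairs of the run correlated over the 22 arrays at a median r of 0.97 (0.92 to 0.99), and their deviations from group means at 0.75 (0.37 to 0.91). The same deviations gave a median r of 0.25 for pairs of the other 13 probe sets with no symbol and 0.35 for the 22 with several symbols. Deviations of run members also correlated with those of the 3 named genes closest to each over the arrays. These ran from 0.66, for 10383212 with Mx2, to 0.92, for 10383152 with H2-Q4. Those genes were picked as the closest of all probe sets with 1 symbol on the same arrays, which favours high values. Whether such variation is particular to the run was not tested. These correlations share arrays and are descriptions over 78, 78 and 231 pairs. KO LPS replicate 4 was the lowest of its group in 10 of the 13, as in the count over all 48.

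For each probe set with no symbol, the probe set with 1 symbol whose values correlated most closely over the 22 arrays was found, and much of each correlation is the treatment difference that chose the members. Among the largest differences, 10383202 was most like Mx2 (r = 0.99), 10383206 most like Cxcl10 (r = 0.99), and 10383198 and 10383168 most like Rnf213 (r = 0.99 each). Outside the run the largest was 10502791, most like Usp18 (r = 0.99). Its saline values were -1.55, -1.25, -1.13 and -1.51 in WT and -1.26, -1.12, -1.39 and -1.11 in KO. After LPS it ran from -0.09 through 0.10 to 0.31 in WT and from -0.27 through 0.09 to 0.23 in KO. The treatments stood apart in both genotypes, by 1.5 in WT and 1.27 in KO (SE 0.09 each).

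The other probe sets with no symbol outside the run ran from 0.40 to 1.10, and their closest genes were looked up after their values were seen. Probe set 10429564, at 1.10 (SE 0.07), was most like Slfn5 (r = 0.97). It sits in the row beside the 2 probe sets of Ly6c1 and Ly6c2. Probe set 10381474, at 1.05 (SE 0.07), was most like Sgk1 (r = 0.96), 10398039, at 0.87 (SE 0.05), most like Lcn2 (r = 0.97), and 10351206, at 0.75 (SE 0.14), most like Casp4 (r = 0.93). Probe set 10346191, at 0.69 (SE 0.05), was closest to Tnfsf10 (r = 0.97), and 10606016, at 0.69 (SE 0.04), to Cxcl10 (r = 0.99). Between 0.41 and 0.54 lay 10444830, 10455957, 10350758, 10502050 and 10345762, closest to Rhoc, Gm4951, Gimap6, Clic4 and Cemip2 with r from 0.89 to 0.97.

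The last of them, 10417068, differed from the rest in spread. Its WT saline values were -0.27, 0.11, -0.87 and -0.79, and its KO saline values were -0.52, 0.42, -0.25 and -0.34. After LPS it ran from -0.91 through 0.30 to 0.61 in WT and from -0.17 through 0.04 to 0.21 in KO. Its treatments overlapped in both genotypes, its difference was 0.60 in WT and 0.21 in KO (SE 0.23 each), and it was the 1 probe set of the 48 with an averaged adjusted p above 0.05 (0.43). Its closest gene was Luzp2 at r = 0.70. It dropped below 0.4 in 13 of 22 fits that each left out 1 array.

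Genes of antigen presentation and the cell surface were listed by 4 probe sets. Class I heavy chains, which display peptides to T cells, appear in 10444824 (H2-Q6 and H2-Q8), at 0.91 (SE 0.08), and in 10450075 (H2-K1, LOC547349 and H2-D1), at 0.63 (SE 0.09). In 10444824 the WT saline arrays lay at -0.83, -0.40, -0.33 and -0.80 and the KO saline arrays at -0.84, -1.05, -0.83 and -0.90. Its LPS values ran from -0.05 through 0.07 to 0.54 in WT and from -0.06 through 0.12 to 0.42 in KO. WT saline replicates 2 and 3 were the highest of the saline arrays, and all saline arrays lay below all LPS arrays. Ly6c1 and Ly6c2, surface proteins of endothelium and monocytes, are listed by 10429573 at 0.49 (SE 0.06) and 10429568 at 0.44 (SE 0.07), whose deviations correlated at r = 0.90.

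Nuclear body genes of the Sp100 family, which bind chromatin, were listed by 4 probe sets between 0.41 and 0.60. The largest, 10356262, lists Gm7592, LOC101055663, LOC671917, Gm7609 and Sp100 and differed by 0.60 (SE 0.05). The others were 10347933 (LOC101055672, C130026I21Rik, Sp140 and A530032D15Rik) at 0.47, 10534909 (LOC102638047, Gm15753 and Sp110) at 0.42, and 10356278 (LOC102638047, LOC100041057, LOC664787, Gm15753, C130026I21Rik and Sp110) at 0.41. In 10356278 the KO saline values were -0.55, -0.47, -0.47 and -0.04, and replicate 4 overlapped the KO LPS range of -0.15 to 0.26.

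The remaining 3 probe sets list a cell cycle inhibitor, a purine salvage enzyme and an antiviral enzyme. Probe set 10443463 lists 4930567H12Rik and Cdkn1a, whose product p21 blocks cyclin-dependent kinases. It lay at -1.14, -1.21, -1.32 and -1.16 in WT after saline, at -1.29, -1.24, -1.41 and -1.31 in KO after saline, from 0.15 through 0.21 to 0.42 in WT after LPS and from -0.75 through 0.02 to 0.30 in KO after LPS. Treatments did not overlap, and the low end in KO after LPS was replicate 4. The averaged difference was 1.37 (SE 0.09). Probe set 10414527 lists Pnp2 and Pnp, purine nucleoside phosphorylases, at 0.64 (SE 0.06), and 10533246 lists Oas1a and Oas1g, oligoadenylate synthetases that answer double-stranded RNA, at 0.55 (SE 0.07).

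Where a listed gene also had a probe set of its own, that probe set gave a measure that had no part in the choice. Of the 48 symbols, 11 had 12 such probe sets, of which 9 were called higher in the averaged contrast and 0 lower (limma), where 1.9% of the probe sets with 1 symbol were called higher. Beside the 2.40 of the probe set that lists 6 Gbp genes, Gbp4 alone differed by 2.98 (SE 0.06), Gbp9 by 1.67 (SE 0.08), Gbp11 by 1.0 (SE 0.09) and Gbp8 by 0.50 (SE 0.06). Beside the 2.78 of the probe set that lists Gbp2 and Gbp2b, Gbp2b alone differed by 0.18 (SE 0.05, adjusted p = 0.037). RefSeq accessions held by the annotation for that shared probe set were those of Gbp2 alone. Sp100 alone differed by 1.03 (SE 0.07) beside 0.60, Pnp by 0.58 (SE 0.09) beside 0.64, Oas1a by 0.39 (SE 0.05) beside 0.55 and Sp140 by 0.37 (SE 0.05) beside 0.47. The 3 that did not pass were both probe sets of A530032D15Rik, at 0.05 (SE 0.05) and 0.14 (SE 0.07), and Gm1966, at 0.25 (SE 0.07, adjusted p = 0.073). Probe sets differ in their probes, so the differences are set side by side and not tested against each other. Over all 22 probe sets, the annotation held RefSeq accessions of 2 or more listed genes for 18 and of 1 for the other 4. That 1 gene was Gbp2 in 10496592, Cdkn1a in 10443463, H2-K1 in 10450075 and Sp110 in 10534909.

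Probe sets with 1 symbol were counted by gene list in the same contrast, in which their median was -0.01 over all genes. Only the GTPase, Oas, class I and Ly6 lists hold families that the probe sets with several symbols list. No such probe set lists a Schlafen, Trim30, CC chemokine, MS4A, PYHIN, metallothionein, apolipoprotein L or Serpina3 gene. The Sp100 family had no list. All 12 of the interferon-inducible GTPases rose, led by Gbp5 at 3.13, Gbp4 at 2.98, Iigp1 at 2.60 and Gbp3 at 1.82, with a list median of 1.48. Of 16 Ifit and Oas genes 8 rose (Ifit1 by 2.57, Ifit3 by 2.07, Ifit2 by 1.77, Ifit3b by 1.32), with a list median of 0.23. The rest of the 8 were Oasl2 (0.97), Oasl1 (0.69), Oas1a (0.39) and Oas1b (0.36). Oas1c, Oas1d, Oas1e, Oas1f, Oas1h, Oas2 and Oas3 did not pass. Of 8 Schlafen genes 6 rose (Slfn5 by 2.28, Slfn2 by 1.13, Slfn3 by 0.63, Slfn4 by 0.56), and of 7 Trim30 and related genes 4 did (Trim30a by 1.75, Trim25 by 0.48, Trim21 by 0.42, Trim30d by 0.26). The list medians were 0.44 and 0.26.

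Class I genes with 1 symbol were less uniform: 3 of 8 rose, H2-Q4 by 1.0, H2-Q5 by 0.23 and H2-T24 by 0.20, and the list median was 0.14. Of 11 measured CC chemokine genes 7 rose, led by Ccl2 at 1.25, Ccl12 at 1.02 and Ccl19 at 0.74. They are measured by 15 probe sets, of which 11 rose and 5 are of Ccl19, and the median was 0.58 over probe sets and 0.47 over genes. Of 8 MS4A genes 4 rose (Ms4a4a by 0.43, Ms4a6d by 0.38, Ms4a6c by 0.29, Ms4a6b by 0.24; median 0.19), of 10 PYHIN genes 2 rose (Ifi203 by 0.44, Ifi207 by 0.27; median 0.10), and of 4 metallothioneins 2 rose (Mt2 by 0.93, Mt1 by 0.69; median 0.41). Of 5 apolipoprotein L genes 1 rose (Apol10b by 0.36; median 0.01). None of the 3 other Ly6 genes (median 0.07) and not the 1 measured Serpina3 gene (0.23) passed.

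Some genes of the vessel wall fell, in a contrast where 0.716% of the probe sets with 1 symbol were called lower. Of 12 endothelial transporter and junction genes 6 fell (Slco1a4 at -1.26, Cldn5 at -1.11, Slco1c1 at -0.61, Abcb1a at -0.45) and 0 passed as higher, with a median of -0.25. The other 6 did not pass, among them Cdh5 at 0.22, Slc2a1 at 0.21 and Esam at -0.02. Of 8 endothelial markers 6 fell (Cldn5, Tek at -0.69, Kdr at -0.54, Emcn at -0.27) and 0 passed as higher. The mean over these 8 lay between 0.19 and 0.32 in the WT saline arrays and between -0.14 and -0.04 after LPS, and in KO between 0.26 and 0.36 after saline and between -0.11 and 0.06 after LPS. Of 6 microglial and macrophage markers 1 fell (Cx3cr1 at -0.35), with a mean of -0.13 to 0.06 in WT after LPS and 0.06 to 0.10 after saline, and of -0.03 to 0.11 and -0.03 to 0.16 in KO. Of 7 measured markers each of choroid plexus, pituitary and blood cells, and of 8 of hypothalamic neurons, 0 passed in either direction. The part of these cell types in the differences of the 48 probe sets was not tested.

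The response was also measured in arrays that took no part in the choice. Of the probe sets without a single symbol, 50 passed 0.4 in size in the WT arrays, 48 of them higher. The number chosen changed when single saline arrays were left out: without WT saline replicate 2 it was 52 higher and 59 lower, and without replicate 3 it was 60 higher and 8 lower. In the KO arrays alone (limma), 42 of these 48 were called higher, where 0.795% of all probe sets were, and all 48 differences were above 0. Their median fell from 0.96 in WT, where they were chosen, to 0.79 in KO. The 6 that did not pass in KO were 10351206, 10566574, 10417068, 10502050, 10429568 and 10578962, with differences from 0.21 to 0.52. Chosen in the KO arrays, 52 passed, 50 of them higher, and in the WT arrays alone 45 of these 50 were called higher, where 1.18% of all were, with medians of 0.77 in KO and 0.92 in WT. The 5 that did not pass in WT, with differences there from 0.02 to 0.30, are none of the 48. The rule for the 48 also used the WT values, so nothing is read from that absence. Of 2 probe sets chosen as lower in each genotype, 0 were called lower in the other, against 0.0868% of all in KO and 0.222% in WT. At an unadjusted p under 0.05, 0 passed in either genotype, and their medians moved from -0.50 to -0.13 and from -0.43 to -0.09.

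The comparison of genotypes is independent of the choice, which averaged over them. After LPS, 35 of the 48 were lower in KO than in WT and 13 higher, from -0.49 for 10351206 to 0.18 for 10350758. Their median was -0.09 beside -0.00391 over all probe sets. Lower in KO were 23 of the 26 with no symbol, among them all 13 of the run, and 12 of the 22 with several. The share of all probe sets lower in KO was not counted, so no direction is read from the 35. By limma 0 of the 48 passed an adjusted p of 0.05 (0.0312% of all probe sets did), and 7 of the 48 had an unadjusted p under 0.05, beside 10.4% of all. After saline 0 of 48 passed (0.00347% of all), and 2 had an unadjusted p under 0.05, beside 4.87%. Averaged over treatments 0 passed (0.0625% of all), and 4 had an unadjusted p under 0.05, beside 14.8%. With the array number as a term 0 passed in any of these contrasts or in the interaction, and 36 of the 48 were lower in KO after LPS, with a median of -0.07. For the interaction, the KO response minus the WT response, 0 passed (0% of all), and 2 had an unadjusted p under 0.05, beside 1.73%. The 95% interval of the KO minus WT difference after LPS reached between 0.10 and 0.41 to either side of its estimate, so smaller differences were not resolved.

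The smallest p after LPS belonged to 10398039, the probe set with no symbol whose values were most like those of Lcn2. It lay at -0.61, -0.55, -0.46 and -0.58 in WT after saline and at -0.66, -0.64, -0.65 and -0.62 in KO after saline. After LPS the WT arrays ran from 0.31 through 0.42 to 0.57 and the KO arrays from -0.09 through 0.01 to 0.37. The upper KO arrays overlapped the WT arrays and the median KO array lay below all of them. KO minus WT after LPS was -0.30 (SE 0.07; unadjusted p = 0.00017, adjusted p = 0.13), and -0.25 within array numbers 1 to 11, -0.30 within 12 to 22 and -0.28 with the number as a term (adjusted p = 0.42). With limma's array weights its adjusted p was 0.043. Lcn2 itself, which binds bacterial siderophores, was among the 9 probe sets of the array that passed, at -1.04 (SE 0.18, adjusted p = 0.035). Over the arrays 10398039 was nearly as close to Rnf213 and Nlrc5 (r = 0.96 each) as to Lcn2 (r = 0.97). Its deviations from group means correlated at 0.48 with Lcn2, 0.59 with Rnf213 and 0.70 with Nlrc5. The likeness over arrays holds the treatment and genotype differences, so the result of Lcn2 is no support for one in 10398039.

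Probe set 10345762 was next, with saline values of -0.32, -0.23, -0.20 and -0.14 in WT and -0.41, -0.32, -0.21 and -0.36 in KO. After LPS it ran from 0.02 through 0.25 to 0.49 in WT and from -0.16 through 0.02 to 0.24 in KO. The genotypes overlapped after LPS. KO minus WT after LPS was -0.25 (SE 0.07; unadjusted p = 0.0014, adjusted p = 0.28), with -0.15 and -0.35 within the array numbers and -0.27 with the number as a term (adjusted p = 0.62). With array weights its adjusted p was 0.0497. These 2 also had the smallest p averaged over treatments, at -0.19 (SE 0.05, unadjusted p = 0.0018) and -0.18 (SE 0.06, unadjusted p = 0.0056), with adjusted p = 0.20 and 0.21.

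The estimate furthest below 0 after LPS was that of 10351206, the probe set most like Casp4. Its saline values were -0.47, -0.34, -0.28 and -0.39 in WT and -0.45, -0.36, -0.38 and -0.33 in KO. After LPS it ran from 0.02 through 0.63 to 1.39 in WT and from -0.25 through 0.05 to 0.50 in KO. WT LPS replicates 3 and 4 stood highest, at 1.13 and 1.39, and the genotypes overlapped. KO minus WT was -0.49 (SE 0.16, adjusted p = 0.36), and -0.39 (SE 0.17) with the array number as a term, -0.34 within numbers 1 to 11 and -0.32 within 12 to 22.

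After saline the smallest p belonged to 10414527 (Pnp2 and Pnp), with -0.77, -0.63, -0.57 and -0.54 in WT and -0.58, -0.31, -0.23 and -0.33 in KO, a difference of 0.27 (SE 0.10, unadjusted p = 0.016, adjusted p = 0.87). KO saline replicate 1 lay within the WT range and the other 3 above it. With the array number as a term the difference was 0.18 (SE 0.09). The next was 10444824 (H2-Q6 and H2-Q8), at -0.32 (SE 0.13, unadjusted p = 0.027, adjusted p = 0.87), and at -0.25 (SE 0.13) with the number as a term. For the interaction the smallest p was again that of 10414527, whose response was 0.82 in WT and 0.46 in KO, a difference of -0.36 (SE 0.13, unadjusted p = 0.0097). The next was 10381474, most like Sgk1, whose response was 0.89 in WT and 1.21 in KO, a difference of 0.32 (SE 0.13, unadjusted p = 0.027). Both had an adjusted p near 1, and their values were -0.35 and 0.31 with the number as a term. The WT saline arrays of 10381474 lay at -0.81, -0.71, -0.94 and -0.79 and its KO saline arrays at -1.08, -0.96, -1.09 and -0.97, without overlap, while its LPS arrays overlapped (-0.17 to 0.34 in WT, -0.16 to 0.47 in KO).

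All 13 probe sets of the run were lower in KO than in WT after LPS, with values of -0.22 to -0.10, and none passed (lowest adjusted p = 0.37). All 13 were also lower in array numbers 12 to 22, which hold most KO arrays, than in 1 to 11. With the number as a term the 13 lay between -0.17 and -0.04 and none passed. Within numbers 1 to 11, 11 of the 13 were lower in KO, between -0.17 and 0.21, and within 12 to 22 all 13 were, between -0.30 and -0.000227. Since these 13 vary together, they are close to 1 measurement and not 13. The immunity-related GTPases lay between -0.08 and 0.06 in the same comparison, and the 2 guanylate-binding probe sets at -0.35 and -0.20 (-0.31 and -0.16 with the number as a term). With the array number as a term, 5 of the 48 differed between numbers 12 to 22 and 1 to 11. Higher in the later numbers (9.78% of all probe sets) were 10350758 (0.16), 10429573 and 10429568 (Ly6c1 and Ly6c2; 0.18 each) and 10414527 (0.17), and lower (8.2% of all) was 10444830 (-0.20). What the numbers stand for is not given in the sources used here.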

How the data were processed

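The values deposited by the authors are on a log2 scale and cover 28815 probe sets and 22 arrays. Per the submitters' processing notes they come from RMA; its version, the build and the annotation are not given in the sources used here. For each row the median is 0 to within 7.02e-07, so the values were centred and hold no levels, and the base of the logarithm was taken as 2. No pair of arrays held identical values. Precision is limited by the number of arrays.

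Groups came from the labels. Symbols came from the platform annotation, brought up to date through RefSeq gene IDs (GRCm38.p6). Of 21780 single-symbol probe sets 21689 matched, as did all 48 symbols that the 22 probe sets list. limma 3.58.1 in R 4.3.3 fitted 1 mean per group over all probe sets, with default empirical Bayes moderation, two-sided tests and Benjamini-Hochberg adjustment over all 28815, and a call was made at an adjusted p under 0.05. Errors are standard errors of the fit unless given as SD. The held-out measures were fitted on the arrays of 1 genotype. The scripts' tests were checked on simulated data.

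The probe sets, the 13 family lists and the 6 marker lists were chosen with earlier results of these data known. The text names the 12 largest increases, the 2 smallest p of each genotype contrast, the 2 probe sets on either side of the threshold, every probe set with several symbols and up to 4 called genes per list; other probe sets were named after their values were seen. The closest gene was looked up by Pearson correlation, for the largest by that rule and for the rest afterwards. Alternatives left out single arrays, the 4 arrays with the highest choroid plexus or pituitary signal, or either range of array numbers. Another added the range as a term. Others renormalized the values, moved the threshold to 0.3 or 0.5, or changed the weights, the moderation, the group summary or the adjustment. Protein sequences of the listed copies were not used here.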

Additional observations from a re-analysis of the deposited data

Results flagged for a closer look

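In 8 of 192 groups of 4 or 7 arrays, 1 array lay far from the others of its group, and chance alone flags about 1 group in 20. KO LPS replicate 4 was the low array for 3 probe sets of the run, at -0.44 for 10383202, at -0.41 for 10383204 and at -0.37 for 10383212. KO saline replicate 4 was the high array for 10375515 (Olfr56 and Ifi47), at -1.18, where the other 3 lay within 0.01 of each other, and for 10356278 (a probe set of the Sp100 family), at -0.036. WT LPS replicate 3 was the high array for 10443463 (4930567H12Rik and Cdkn1a), at 0.42. WT saline replicate 2 was the high array for 10383194 of the run, at -0.62, and KO LPS replicate 6 for 10346191, at 0.45. The flags share arrays and, for the run, probe sets that vary together.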

How the results depend on the processing

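The rule gave 46 to 50 probe sets when 1 array was left out, 62 at a threshold of 0.3 and 38 at 0.5. It gave 169 (65 lower, 46 of them among the 48) within array numbers 1 to 11 alone, where KO after saline has 1 array, and 52 (5 lower, 44 shared) within 12 to 22. Array number as a term or centring each array on its median kept the same 48. Quantile normalization of the deposited values gave 48 with 44 shared and shrank the larger differences, for 10496592 from 2.78 to 1.57, for 10385518 to 1.49, for 10531994 to 1.45 and for 10385533 to 1.38; the cause was not tested. Of 384 averaged differences recomputed, 28 moved by more than the replicate spread and 0 reversed. With limma's array weights, 2 of the 48 passed in KO minus WT after LPS (lowest adjusted p = 0.0426) and 2 averaged over treatments, and 0 in the other settings run. After saline and for the interaction 0 passed in every setting run. When 1 array was left out, 47 to 60 probe sets were chosen as higher in WT, of which 34 to 43 were called in KO (70.8% to 89.6%), and 42 to 59 were chosen as higher in KO, of which 41 to 47 were called in WT (79.7% to 100%). Those chosen as lower numbered 1 to 59 in WT, highest without WT saline replicate 2, and 1 to 6 in KO, and 0 were called lower in the other genotype. In the other settings 37 to 43 were called in KO and 34 to 56 in WT. These settings include the thresholds of 0.3 and 0.5, which change how many are chosen, so the counts are not shares. Probe sets near the threshold came and went: 10356278 fell below it in 7 of 22 fits that left out 1 array, 10345762 in 5, and 10534909 and 10566571 in 1 each. No paired analysis was possible because the labels give the arrays no replicate numbers shared between groups. With 4 saline arrays per genotype, and with the array number unevenly divided between genotypes, small genotype differences cannot be resolved.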
